A study of Mus musculus with 8 samples.

Results

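The genes described here encode the nuclear-encoded subunits of respiratory complex I and the assembly factors named after it. They were taken as all mouse genes whose symbol begins with Ndufa, Ndufb, Ndufc, Ndufs, Ndufv or Ndufaf, leaving out pseudogenes, which gave 47 genes (39 subunit genes and 8 Ndufaf genes) of the 54532 in each count table. They were followed in quadriceps muscle of mice aged 3 months, in 8 libraries of 3′ mRNA sequencing. The 4 control libraries came from Gpcpd1 Flox/Flox mice negative for Mck Cre, and the 4 knockout libraries from Gpcpd1 Flox/Flox mice positive for MckCre. All the mice therefore carried the floxed allele and ate chow, and the transgene changed together with the loss of Gpcpd1, a glycerophosphodiesterase gene. The Mck promoter drives Cre in muscle fibres, so the other cells of the muscle are not expected to lose the gene.

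Complex I is the entry point of the mitochondrial respiratory chain. It takes electrons from NADH, passes them along a chain of iron-sulphur clusters to ubiquinone, and couples this to proton pumping across the inner membrane. The N module binds NADH and the Q module binds ubiquinone, and together they form the arm in the matrix. The proximal and distal parts of the membrane arm hold the proton pumps, which are encoded in mitochondrial DNA and surrounded by nuclear-encoded accessory subunits. Core subunits carry out the catalysis and are shared with bacteria, whereas accessory subunits serve assembly and stability. Assembly factors bind the intermediates and are absent from the finished enzyme. Muscle fibres, with their high demand for ATP, are rich in the complex.

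Library totals ran from 4404116 to 5183079 reads in controls and from 4806806 to 5405999 reads in knockouts. Levels are given as CPM, the read count per unit of TMM-scaled library size, with means ± SD over 4 libraries. A gene was called higher or lower in knockouts when edgeR's adjusted p over the 10691 genes tested was under 0.05. Gpcpd1 itself was at 158.5, 156.3, 134.7 and 149.4 CPM in controls 1 to 4 and at 30.4, 35.7, 35.9 and 38.6 CPM in knockouts 1 to 4. The 2 groups did not overlap (log2 fold change -2.09, SE 0.10, edgeR adjusted p = 2.13e-13). Markers of skeletal muscle fibres were abundant in every library, with a summed level of 152550 to 168805 CPM. The source labels do not say whether each library came from a separate mouse, and the p-values describe the spread among these 8 libraries, which may be technical. In whole muscle, fewer cells of a type and less RNA per cell cannot be told apart.

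In knockout muscle 10 of the 38 complex I subunit genes tested were called higher and 0 lower. DESeq2 called 9 higher and 0 lower, and at an unadjusted p under 0.05 edgeR had 15 higher (39.5%) and 0 lower, beside 15.2% higher and 12.9% lower of all genes tested. The called genes were Ndufs4 of the N module, Ndufa5 of the Q module, Ndufa8 and Ndufc2 of the proximal membrane arm, and Ndufb3, Ndufb4, Ndufb6, Ndufb7, Ndufb9 and Ndufb10 of the distal membrane arm. These 10 genes are 26.3% of the subunit genes tested, beside 8.87% of all genes tested that were called higher and 6.8% that were called lower. Of the 8 Ndufaf genes, 1 (Ndufaf4) was called lower and 0 higher, with edgeR and with DESeq2, and Ndufaf7 was higher at an unadjusted p under 0.05.

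Most of the remaining subunit genes lay on the same side, without passing the test. The log2 fold change was above 0 for the 37 tested subunit genes that are reported singly. Those of Ndufa13, Ndufa2 and Ndufc1, all close to 0, changed sign in at least 1 alternative. The median over the 38 was 0.18, beside 0.01 over all genes tested, and the highest value was 0.97. In 8 subunit genes (21.1%) every knockout library lay above every control library, beside 10.3% of all genes tested. In 0 subunit genes did every knockout lie below every control, beside 8.92% of all genes.

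**Figure D1:**
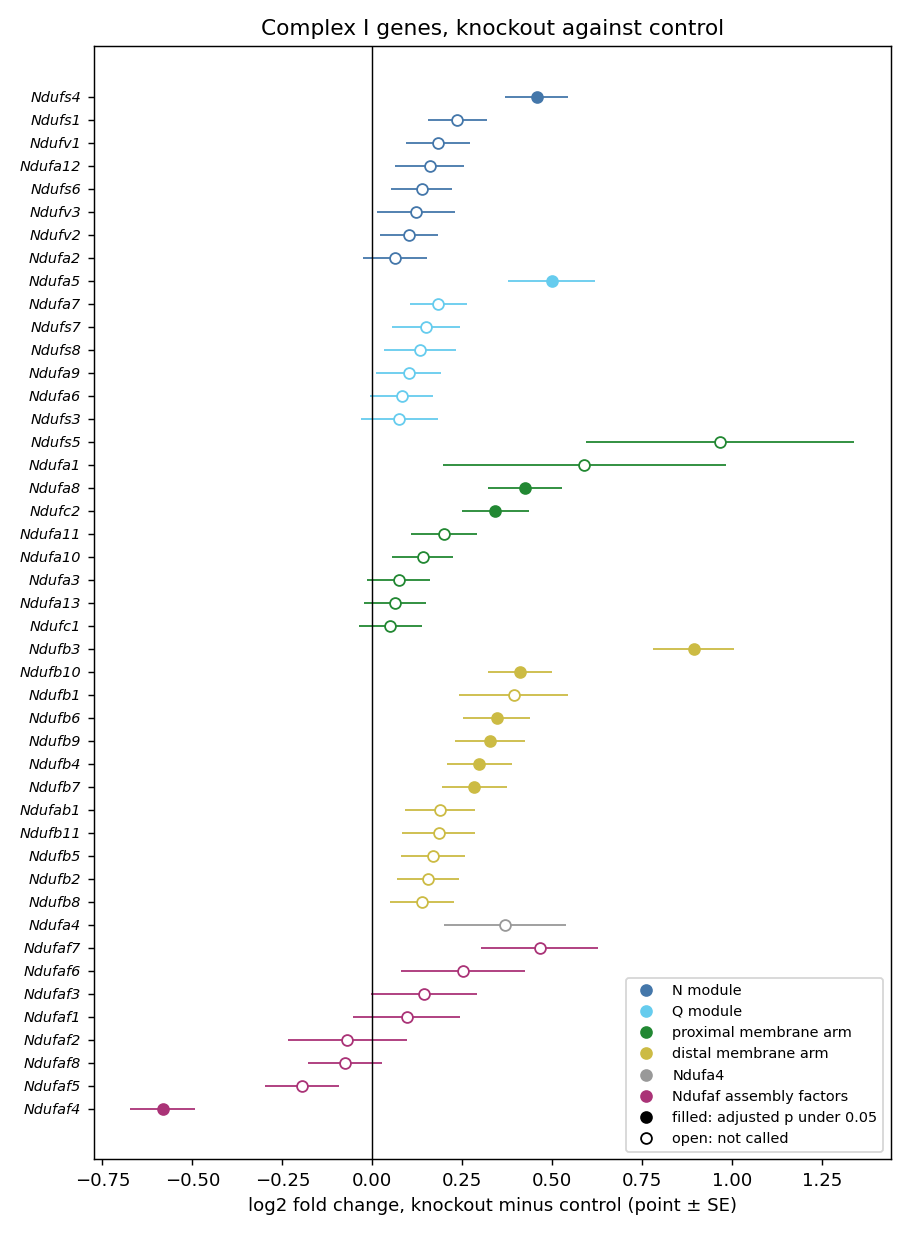
The log2 fold change of knockout against control (horizontal axis, point ± SE) is drawn for 45 tested genes, grouped and coloured by role, with filled points for genes called at an adjusted p under 0.05. The 37 subunit genes drawn lie to the right of 0, and the 8 Ndufaf genes lie on both sides, with Ndufaf4 at -0.58.

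Promoter sequences are shown for Ndufb3 and Ndufb10, called distal-arm genes whose groups did not overlap, and for Ndufaf4, the assembly factor called lower. These 3 genes were picked as examples of the opposite movements described below. Ndufb4, also a called distal-arm gene without overlap, is not shown. The sequences are RefSeq GRCm38.p6 bases upstream of the start site, 5′ to 3′ on the gene's strand, ending before the first annotated base of the gene in RefSeq and in GENCODE M21. Capitals mark a match to 1 of the 5 motifs searched.
Ndufb3, chr1:58586147-58586383, plus strand: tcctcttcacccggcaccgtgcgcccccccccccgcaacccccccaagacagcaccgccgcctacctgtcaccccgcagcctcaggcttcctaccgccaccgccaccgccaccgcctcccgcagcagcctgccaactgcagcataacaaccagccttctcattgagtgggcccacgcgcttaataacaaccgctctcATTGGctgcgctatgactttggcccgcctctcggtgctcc
Ndufb10, chr17:24724479-24724673, minus strand: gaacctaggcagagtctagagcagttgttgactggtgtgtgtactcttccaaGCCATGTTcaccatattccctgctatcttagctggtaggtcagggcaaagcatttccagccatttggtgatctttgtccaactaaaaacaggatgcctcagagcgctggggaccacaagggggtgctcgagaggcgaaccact
Ndufaf4, chr4:24897833-24898082, plus strand: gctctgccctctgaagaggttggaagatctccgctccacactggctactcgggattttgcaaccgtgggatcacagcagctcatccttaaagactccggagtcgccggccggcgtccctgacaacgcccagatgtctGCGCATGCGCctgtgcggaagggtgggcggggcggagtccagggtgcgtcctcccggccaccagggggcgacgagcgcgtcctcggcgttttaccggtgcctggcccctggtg
In Ndufb3 the capitals are the reverse strand of a CCAAT box, 53 bases before the RefSeq start. In Ndufb10 they are the reverse strand of the YY1 motif AANATGGC, 198 bases before it, and in Ndufaf4 the NRF1 motif, a palindrome, 113 bases before it. YY1, NRF1 and the ETS factor GABP are known as regulators of nuclear genes for mitochondrial proteins.

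The 5 motifs were searched on both strands of windows from 250 bases before to 50 after the RefSeq start, which were at hand for 41 of the 47 genes. The YY1 motif AANATGGC was found in 12 of 34 subunit windows (35.3%), beside 6.96% of the windows of all 27025 genes. Among called subunit genes, 2 of 9 windows held it (22.2%), beside 10 of 25 windows (40%) of subunit genes not called. The NRF1 motif was found in 1 of 34 subunit windows (2.94%), in Ndufa11, and in 2 of 7 Ndufaf windows (28.6%), in Ndufaf4 and Ndufaf5, beside 1.07% of all windows. The ETS motif CCGGAAG was found in 4 subunit windows (11.8%) beside 9.93% of all windows, and the CCAAT box, in either orientation, in 10 (29.4%) beside 41.1%. The ERR half-site TCAAGGTCA was found in 0 of the 34 subunit windows, beside 0.466% of all windows. The share of windows with the YY1 motif was thus higher among subunit genes than among all genes, and it was not higher among the subunit genes called than among those not called. Only the letters were matched, and the differences were not tested. The windows hold 50 bases past the start, where AANATGGC, which contains ATG, can also match a start codon. The 27025 genes were not limited to genes expressed in these libraries.

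In the N module, which oxidises NADH, 1 of 8 genes was called (12.5%, near the 8.87% of all genes tested called higher). Ndufs4, an accessory subunit whose loss in mice and humans causes Leigh-like encephalopathy, was at 131.4, 150.2, 130.8 and 144.0 CPM in controls 1 to 4. In knockouts 1 to 4 it was at 191.0, 186.4, 172.2 and 214.0 CPM. Every knockout library lay above every control library, and the means were 139.1 ± 9.59 and 190.9 ± 17.3 CPM (log2 fold change 0.46, SE 0.09, edgeR adjusted p = 0.000615).

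The other 7 N module genes had log2 fold changes from 0.06 to 0.24 and were not called. Ndufs1, the largest core subunit, which carries iron-sulphur clusters, was at 172.3, 185.9, 165.6 and 183.1 CPM in controls and at 219.1, 199.2, 192.1 and 222.5 CPM in knockouts. Its groups did not overlap, and its value lay just outside the threshold (0.24, SE 0.08, edgeR adjusted p = 0.0552). Ndufv1, the core subunit that binds NADH and flavin mononucleotide, had a log2 fold change of 0.18 (SE 0.09, edgeR adjusted p = 0.18) with overlapping groups, from 269.0 to 334.7 CPM in controls and from 314.1 to 374.3 CPM in knockouts. Ndufv2, the other core subunit of the module, had 0.10, and the accessory genes Ndufa12, Ndufs6, Ndufv3 and Ndufa2 had 0.16, 0.14, 0.12 and 0.06.

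The Q module, which hands electrons to ubiquinone, had 1 of 8 genes called (12.5%, near the 8.87% of all genes tested called higher). Ndufa5, an accessory subunit of this module, was at 1127, 1574, 1467 and 1043 CPM in controls and at 1753, 1957, 1598 and 2057 CPM in knockouts. The lowest knockout, library 3, lay just above the highest control, library 2. The means were 1303 ± 257.7 and 1841 ± 205.6 CPM (log2 fold change 0.50, SE 0.12, edgeR adjusted p = 0.0077).

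The 6 other Q module genes described here were not called and had log2 fold changes from 0.08 to 0.18. Ndufa7, an accessory subunit, was at 206.5, 207.0, 208.1 and 233.3 CPM in controls and at 244.9, 242.0, 239.7 and 243.8 CPM in knockouts. Its groups did not overlap and the knockouts lay close together, but the difference missed the threshold (0.18, SE 0.08, edgeR adjusted p = 0.125). Ndufs7, the core subunit with the last iron-sulphur cluster before ubiquinone, had 0.15 (SE 0.09, edgeR adjusted p = 0.328), with controls from 329.5 to 433.8 CPM and knockouts from 354.7 to 439.5 CPM. The core genes Ndufs8 and Ndufs3 had 0.13 and 0.08, and the accessory genes Ndufa9 and Ndufa6 had 0.10 and 0.08.

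In the proximal membrane arm, which joins the matrix arm, 2 of 9 genes were called (22.2%, beside 8.87% of all genes tested called higher). Without control 3, knockout 3 or knockout 4 there was 1 call among the 9, and without knockout 1 there were 4. Ndufa8, a subunit with twin cysteine motifs on the intermembrane side, was at 143.7, 127.9, 128.8 and 104.2 CPM in controls and at 144.8, 177.0, 159.0 and 196.7 CPM in knockouts. The groups did not overlap, although knockout 1 and control 1 were nearly level (126.2 ± 16.3 against 169.4 ± 22.5 CPM, log2 fold change 0.42, SE 0.10, edgeR adjusted p = 0.00556). Ndufc2, a membrane subunit, was at 102.5, 99.9, 89.5 and 96.7 CPM in controls and at 102.2, 125.3, 132.7 and 132.0 CPM in knockouts. Here knockout 1 fell inside the controls and the other 3 knockouts lay above them (log2 fold change 0.34, SE 0.09, edgeR adjusted p = 0.0121).

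The 7 proximal genes not called included those with the widest spread between libraries. Ndufa1, a small X-linked membrane subunit needed for assembly, was at 128.1, 73.6, 91.4 and 75.5 CPM in controls and at 58.2, 180.1, 134.3 and 181.1 CPM in knockouts. Knockout 1 was thus the lowest of the 8 libraries, while the other 3 knockouts lay above every control (log2 fold change 0.59, SE 0.39, edgeR adjusted p = 0.4). Ndufs5, another subunit with twin cysteine motifs, rested on 10, 4, 9 and 7 reads in controls and on 8, 21, 12 and 20 reads in knockouts, and its groups overlapped (0.97, SE 0.37, edgeR adjusted p = 0.0828). Ndufa11, a membrane subunit, had 0.20 (SE 0.09, edgeR adjusted p = 0.149), with controls from 321.1 to 425.3 CPM and knockouts from 390.0 to 452.9 CPM. Ndufa10 had 0.14, and Ndufa3, Ndufa13 and Ndufc1 had 0.07, 0.06 and 0.05.

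The distal membrane arm, the part farthest from the matrix arm, had 6 of 12 genes called (50%, beside 8.87% of all genes tested called higher). The median log2 fold change over the 12 was 0.29. Without knockout 4 there were 2 calls among the 12, and without control 3 or control 4 there were 3. Ndufb3, a small accessory membrane subunit, had the lowest p of all subunit genes. It was at 92.6, 80.5, 77.7 and 69.8 CPM in controls and at 113.1, 164.6, 152.2 and 164.9 CPM in knockouts. Every knockout lay above every control, with knockout 1 apart from the other 3, and the mean went from 80.1 ± 9.47 to 148.7 ± 24.5 CPM. This was a 1.86-fold rise (log2 fold change 0.89, SE 0.11, edgeR adjusted p = 7.48e-06).

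Ndufb10, a subunit with cysteine motifs that fold in the intermembrane space, was at 446.0, 522.0, 461.7 and 422.9 CPM in controls and at 598.7, 634.4, 548.8 and 680.5 CPM in knockouts. The groups did not overlap (463.1 ± 42.3 against 615.6 ± 55.7 CPM, log2 fold change 0.41, SE 0.09, edgeR adjusted p = 0.00196). Ndufb4, an accessory membrane subunit, was at 78.8, 87.2, 84.6 and 77.1 CPM in controls and at 109.8, 89.2, 96.1 and 108.2 CPM in knockouts. Its groups did not overlap either, with knockout 2 close to control 2 (log2 fold change 0.30, SE 0.09, edgeR adjusted p = 0.0259).

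In the other called distal genes the groups overlapped. Ndufb6, an accessory membrane subunit, was at 99.3, 84.9, 87.7 and 86.0 CPM in controls and at 96.8, 120.5, 113.5 and 123.9 CPM in knockouts, and the overlap came from knockout 1 and control 1 (log2 fold change 0.35, SE 0.09, edgeR adjusted p = 0.0111). Ndufb9, a subunit of the LYR family that binds the acyl carrier protein, was at 967.7, 1229.6, 1035 and 876.0 CPM in controls and at 1221, 1346, 1175 and 1412 CPM in knockouts. Control 2 alone among the controls reached the knockouts (log2 fold change 0.33, SE 0.10, edgeR adjusted p = 0.0217). Ndufb7, a subunit with cysteine motifs on the intermembrane side, was at 350.4, 421.4, 368.5 and 316.3 CPM in controls and at 460.0, 430.2, 404.1 and 478.7 CPM in knockouts. Again control 2 was the control that overlapped, and Ndufb7 had the highest adjusted p of the called members (log2 fold change 0.28, SE 0.09, edgeR adjusted p = 0.0347).

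The 6 distal genes not called had log2 fold changes from 0.14 to 0.39. Ndufb1, a small membrane subunit, was at 137.4, 97.3, 100.6 and 99.4 CPM in controls and at 101.6, 153.2, 147.9 and 167.5 CPM in knockouts. Control 1 was high and knockout 1 low, and the other 6 libraries did not overlap (0.39, SE 0.15, edgeR adjusted p = 0.105). Ndufab1, the mitochondrial acyl carrier protein, which also sits beside the Q module, had 0.19 (SE 0.10, edgeR adjusted p = 0.204), with controls from 48.9 to 60.0 CPM and knockouts from 57.4 to 68.3 CPM. Ndufb11, Ndufb5, Ndufb2 and Ndufb8 had 0.18, 0.17, 0.15 and 0.14.

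Ndufa4, which was first described in complex I and is now placed with complex IV, was at 120.4, 69.3, 76.4 and 81.3 CPM in controls and at 86.7, 118.0, 121.3 and 121.6 CPM in knockouts. Control 1 and knockout 1 again stood against their groups (0.37, SE 0.17, edgeR adjusted p = 0.184). Its relative Ndufa4l2, known as a gene induced by hypoxia, was the 1 subunit-named gene too low to test. It had 10, 11, 6 and 8 reads in controls and 5, 7, 12 and 8 reads in knockouts, or 1.81 ± 0.488 and 1.58 ± 0.510 CPM.

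**Figure D2:**
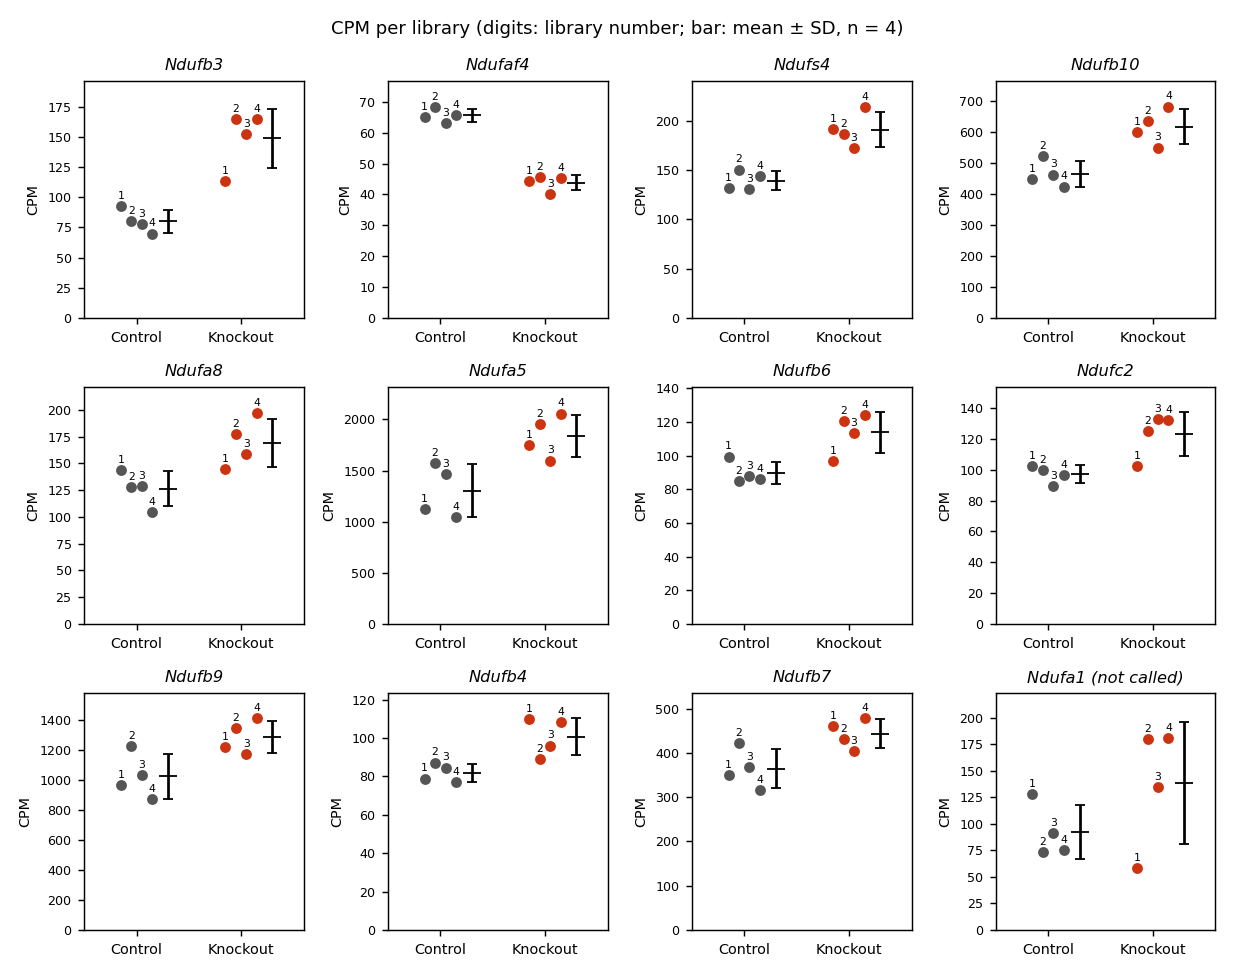
CPM in each library (vertical axes from 0) is plotted for the 11 called genes and for Ndufa1, which was not called, with control and knockout side by side, digits for the library number and a bar for the mean ± SD. The knockouts lie above all controls in Ndufb3, Ndufs4, Ndufb10, Ndufa8, Ndufa5 and Ndufb4 and below them in Ndufaf4, and knockout 1 lies at 58.2 CPM in Ndufa1.

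By function, 0 of the 7 core subunit genes and 10 of the 30 accessory subunit genes (33.3%) were called. Beside them, 8.87% of all genes tested were called higher, and with 7 genes a count of 0 lies near that share. The core genes had a median log2 fold change of 0.13, and 1 (Ndufs1) had an unadjusted p under 0.05. The accessory genes, Ndufa4 left aside, had a median of 0.19. By position, 2 of 16 matrix-arm genes (12.5%, median 0.13) and 8 of 21 membrane-arm genes (38.1%, median 0.28) were called. The called genes were thus all accessory, and more of them lay in the membrane arm. Whether these groups of subunit genes differ was not tested. Among the 16 alternatives, DESeq2 included, the only call of a core gene was that of Ndufs1 under a filter of at least 5 CPM in 4 libraries (edgeR adjusted p = 0.0445).

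The subunit genes also shared differences between libraries of the same genotype. Control 2 was the highest control for 26 of the 38 subunit genes, and control 4 the lowest for 19, beside 30.2% and 27.9% of all genes tested. Among knockouts, library 4 was the highest for 27 and library 3 the lowest for 21, beside 23.8% and 23.2% of all genes. On the log2(CPM + 1) scale, the median difference of the subunit genes from their control mean was -0.05, 0.13, 0.00 and -0.10 in controls 1 to 4, and 0.18, 0.18, 0.10 and 0.29 in knockouts 1 to 4. Control 2 therefore lay above knockout 3, and the groups overlapped. For the distal membrane arm alone the medians were -0.05, 0.14, 0.02 and -0.13 in controls and 0.23, 0.25, 0.18 and 0.40 in knockouts, which did not overlap. Subunit reads made up 1.3% to 1.47% of all reads in controls and 1.47% to 1.68% in knockouts.

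**Figure D3:**
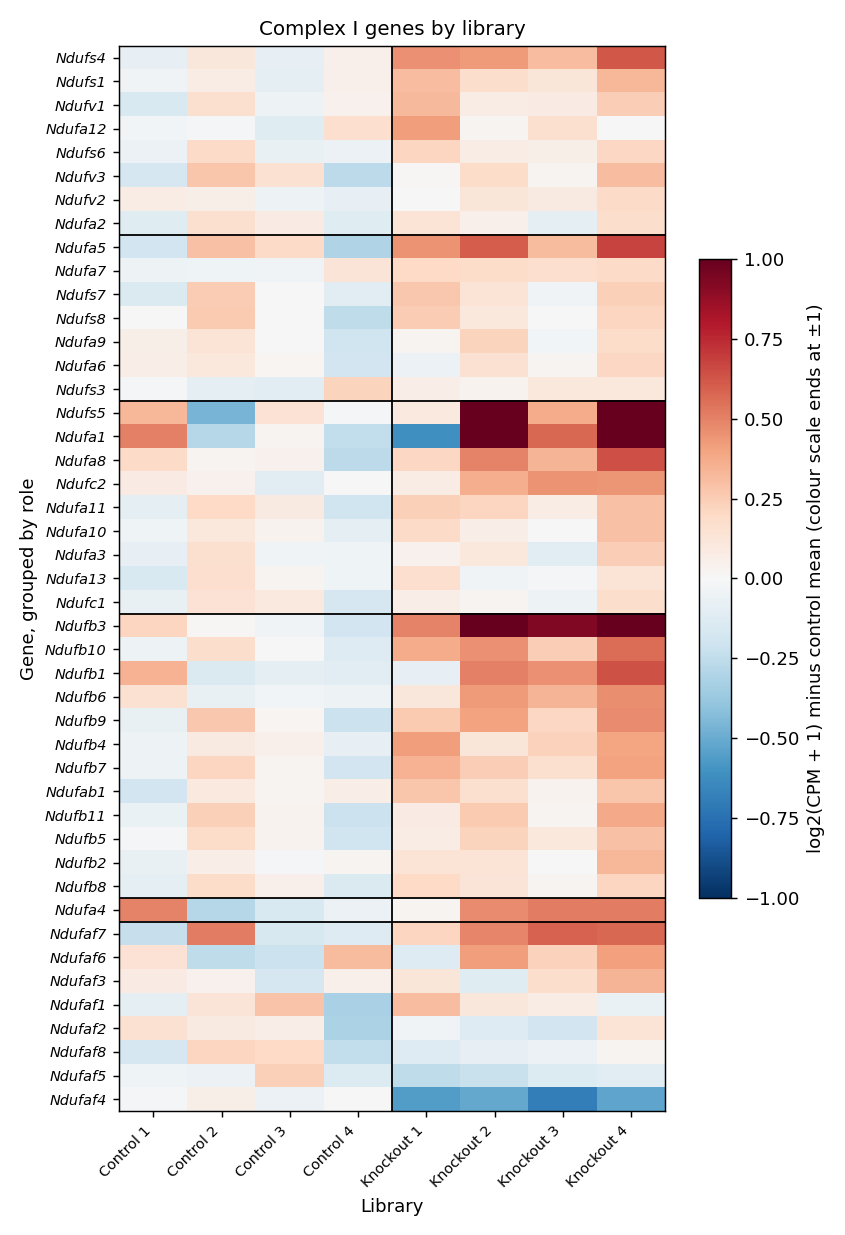
Each cell shows log2(CPM + 1) of 1 gene in 1 library minus the gene's mean over controls (red higher, blue lower, scale ending at ±1), with 45 tested genes in rows grouped by role and the 8 libraries in columns. Knockout 4 is the reddest column over the subunit genes (median 0.29), control 2 is red among the controls (median 0.13), and Ndufaf4 is blue in all 4 knockouts.

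The call count moved with single libraries. It was 5 without knockout 4 and 6 without control 3, and at most 11 with 1 library left out. The calls of Ndufa5, Ndufa8, Ndufb10, Ndufb3 and Ndufs4 held in all 16 alternatives tried, as did that of Ndufaf4. Those of Ndufb4, Ndufb7 and Ndufb9 were lost in 8, 7 and 5 of them, those of Ndufc2 in 3 and that of Ndufb6 in 1. The most calls were lost without knockout 4, those of Ndufb4, Ndufb6, Ndufb7, Ndufb9 and Ndufc2. The count over all genes was also lowest without it, at 1307 called in either direction.

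A second pattern concerned control 1 and knockout 1, and was chosen for description after the values were seen. In 9 of the 38 subunit genes (23.7%) control 1 was the highest control and knockout 1 the lowest knockout, beside 9.55% of all genes tested. These were Ndufa1, Ndufa4, Ndufa8, Ndufb1, Ndufb3, Ndufb6, Ndufc2, Ndufs5 and Ndufv2. Across the 38 genes, the difference of knockout 1 from the other knockouts and that of control 1 from the other controls had a Spearman rho of -0.617 and a Pearson r of -0.84. The genes share the same 8 libraries and are not independent. Neither value was computed over all genes tested. Ndufa1 lay farthest out, at -1.47 for knockout 1 and 0.68 for control 1, which weighs more on r than on rho. The GC content of the last 300 bases of the transcript had a rho of 0.463 with the knockout 1 difference and -0.446 with that of control 1. For transcript length the values were 0.419 and -0.388. The summed level of slow fibre markers, given below, was lowest of the controls in control 1 (40.1 CPM) and highest of the knockouts in knockout 1 (492.7 CPM), and the same held without Myl3 (32.3 and 94.3 CPM). The part of these features in the pattern was not tested.

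Without both of these libraries, 12 subunit genes were called. Ndufa1 then had a log2 fold change of 1.04 (edgeR adjusted p = 4.74e-06), Ndufa4 0.66 (6.48e-05), Ndufb1 0.65 (4.85e-05) and Ndufs5 1.34 (0.029), and these 4 genes were called. They are among the genes whose high control 1 and low knockout 1 prompted leaving these libraries out. Larger differences and lower p-values in them therefore follow from that choice and cannot be read as further support. Ndufb3 rose by 1.07 (edgeR adjusted p = 9.46e-08). Ndufb4 and Ndufb7 were no longer called, at 0.23 and 0.24 (edgeR adjusted p = 0.131 and 0.12). Without knockout 1 alone, Ndufa1, Ndufb1 and Ndufs5 were called, and without control 1 alone, Ndufa4 and Ndufb1.

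**Figure D4:**
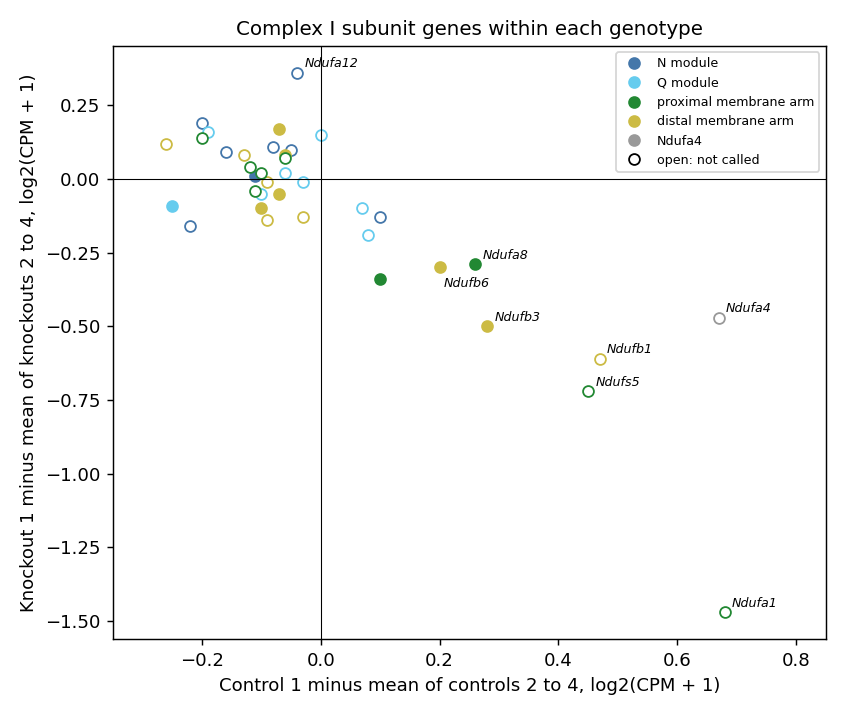
For the 38 tested subunit genes, the difference of control 1 from the mean of controls 2 to 4 (horizontal) is plotted against that of knockout 1 from the mean of knockouts 2 to 4 (vertical), both in log2(CPM + 1), coloured by role and filled where called. Ndufa1, Ndufs5, Ndufb1 and Ndufa4 lie farthest to the lower right, with control 1 high and knockout 1 low. The Pearson r is -0.84 and the Spearman rho is -0.617.

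The 8 Ndufaf assembly factors had a median log2 fold change of 0.01, with 4 genes above 0 and 4 below, and their difference from the subunit genes was not tested. Ndufaf4, which works with Ndufaf3 on the early Q module intermediate, was at 65.0, 68.3, 63.0 and 65.8 CPM in controls and at 44.2, 45.6, 40.1 and 45.2 CPM in knockouts. Every knockout lay below every control, and the knockout mean was 66.8% of the control mean (65.5 ± 2.18 against 43.8 ± 2.52 CPM). The log2 fold change was -0.58 (SE 0.09, edgeR adjusted p = 6.46e-05), between -0.62 and -0.54 in all alternatives. Its partner Ndufaf3 was at 13.6 ± 1.13 and 15.0 ± 2.09 CPM (0.14, SE 0.15, edgeR adjusted p = 0.575).

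Ndufaf7, a mitochondrial methyltransferase, was at 12.1, 20.9, 12.7 and 13.0 CPM in controls and at 16.8, 20.4, 22.1 and 21.8 CPM in knockouts. Control 2 lay among the knockouts and the gene was just outside the threshold (0.46, SE 0.16, edgeR adjusted p = 0.0553). Ndufaf7 was called without control 2, without knockout 1 and with no filter on low counts. Ndufaf5, which hydroxylates Ndufs7, had -0.19 (SE 0.10, edgeR adjusted p = 0.222), with controls from 42.5 to 55.2 CPM and knockouts from 39.0 to 43.1 CPM. Ndufaf6, Ndufaf1, Ndufaf2 and Ndufaf8 had 0.25, 0.10, -0.07 and -0.08.

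Of 13 assembly factors with other names, 3 were called higher (23.1%) and 0 lower, with a median of 0.15. Of all genes tested, 8.87% were called higher and 6.8% lower. Lyrm2, a LYR protein that helps attach the N module, was at 9.05, 11.1, 9.40 and 9.25 CPM in controls and at 16.3, 19.1, 18.8 and 17.9 CPM in knockouts. The groups did not overlap (log2 fold change 0.89, SE 0.15, edgeR adjusted p = 0.000108). Foxred1, needed for a late assembly step, went from 11.8 ± 0.659 to 17.0 ± 3.16 CPM (0.53, SE 0.15, edgeR adjusted p = 0.0195). Timmdc1, which acts on the membrane arm, went from 7.10 ± 0.828 to 10.8 ± 1.55 CPM (0.60, SE 0.18, edgeR adjusted p = 0.0223). With control 3 or control 4 left out, 1 of the 13 was called.

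Of the 7 mitochondrially encoded core subunit genes 4 were tested, and 0 were called with edgeR, with DESeq2 or at an unadjusted p under 0.05. The log2 fold change was -0.16 for mt-Nd1, -0.11 for mt-Nd5, -0.07 for mt-Nd4 and -0.05 for mt-Nd2, and the median was -0.09. mt-Nd1 was at 726.7, 592.9, 611.4 and 780.8 CPM in controls and at 754.5, 486.4, 646.4 and 538.4 CPM in knockouts, with overlapping groups. Reads of mt-Nd3, mt-Nd4l and mt-Nd6 were too few to test, and mitochondrial reads were only 0.18% to 0.329% of all reads. Why so few were counted was not tested, and this limits all the mitochondrial values given here. mt-Nd6, named after its values were seen, was at 2.15, 1.42, 2.94 and 2.31 CPM in controls and at 1.47, 0.38, 0.93 and 0.43 CPM in knockouts. It was called lower with no filter on low counts and without control 2, knockout 1 or knockout 3. Without knockout 2 or knockout 4 it was tested and not called, and in the other alternatives it was too low to test. The median nuclear and the 4 mitochondrial subunit values thus lay on opposite sides of 0, and that difference was not tested.

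Other respiratory chain complexes had higher members as well and no lower ones. Of all genes tested, 8.87% were called higher and 6.8% lower, and in a list as small as complex II a count of 0 lower lies near that share. The shares called higher were 50% in complex II, 22.2% in complex III and 30.8% in complex IV. In ATP synthase the share was 25%, and among the mitochondrial ribosomal protein genes 20.3%. Complex II had 2 of 4 genes called (Sdhc 0.39, Sdhd 1.03), with a median of 0.29, and complex III 2 of 9 (Uqcrc2 0.35, Uqcrb 0.31), with a median of 0.12. Complex IV had 4 of 13 called, led by Cox5b (0.70), Cox6a2 (0.46) and Cox8b (0.32), with a median of 0.21. ATP synthase had 4 of 16, led by Atp5g3 (0.42) and with Atp5h at 0.77, and a median of 0.23. Mitochondrial ribosomal protein genes had 15 of 74 called, led by Mrpl17 (0.58), Mrpl10 (0.63) and Mrps16 (0.57), with a median of 0.19. The subunit genes of complex I, with 10 of 38 and a median of 0.18, lay within the range of these lists. No call was made in complex II with any 1 of controls 2 and 4 or knockouts 2, 3 and 4 left out, and complex III had 1 call without control 1, control 4, knockout 2 or knockout 4. ATP synthase had 2 without knockout 4, and the ribosomal count was 7 to 9 without control 3, control 4, knockout 2 or knockout 4 and with DESeq2.

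**Figure D5:**
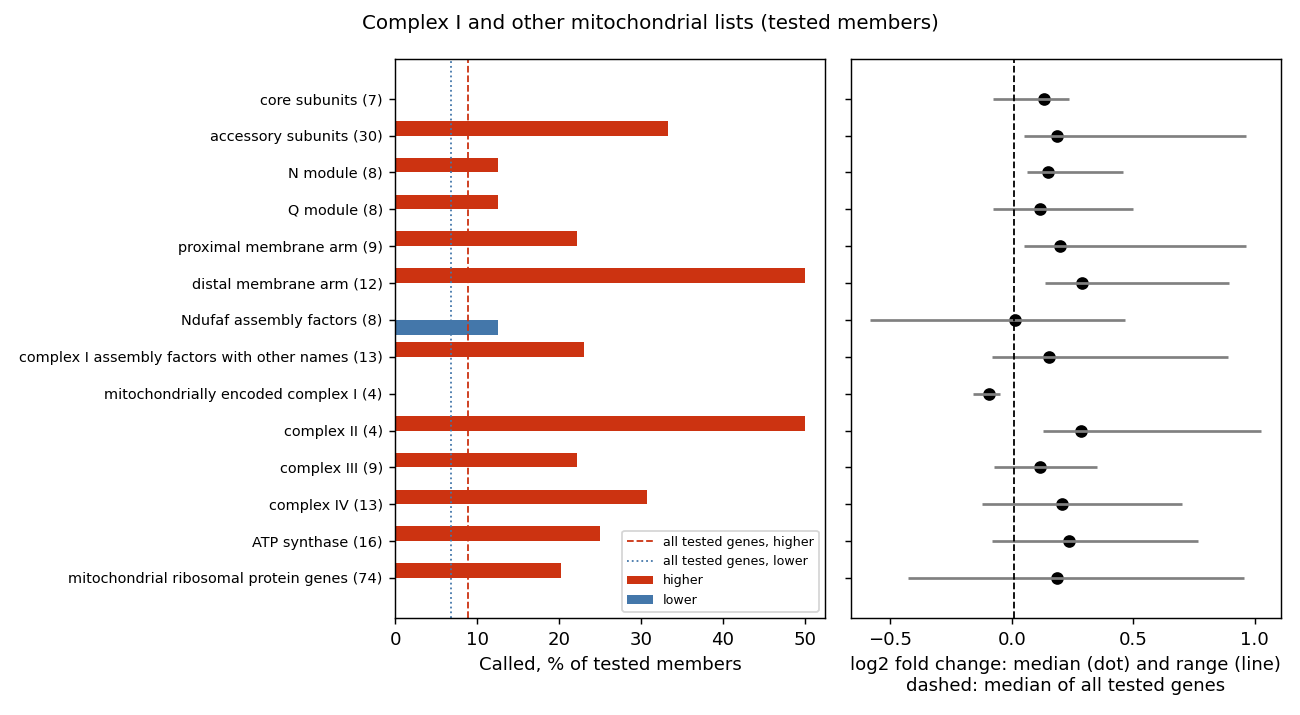
The left panel gives the share of tested members called higher (red) or lower (blue) for each list, with the number tested in parentheses and dashed and dotted lines for all genes tested (8.87% higher, 6.8% lower), and the right panel gives the median (dot) and range (line) of the log2 fold change. The distal membrane arm has a median of 0.29, the core subunits 0.13, the Ndufaf genes 0.01 and the mitochondrially encoded genes -0.09.

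Markers of fibre type and of other cells moved beside these genes. Of the 8 slow fibre markers 4 were tested and 2 were higher, Myl3 (3.20) and Casq2 (0.56). The summed level of the list was 40.1 to 89.4 CPM in controls and 198.2 to 492.7 CPM in knockouts, with the highest value in knockout 1. Most of that difference was Myl3: the other 7 markers summed to 32.3 to 56.0 CPM in controls and 49.8 to 94.3 CPM in knockouts, which overlapped. Atp2a2, a slow fibre calcium pump, had -0.14 and was not called, and Myh7, the slow myosin heavy chain, was at 1.24 CPM in controls and 1.19 CPM in knockouts on average and too low to test. Of the 10 general fibre markers, the myoglobin gene Mb (0.87) and Acta1 were higher and Myh4 was lower. The myosin heavy chain genes Myh2 (1.46, edgeR adjusted p = 0.0644) and Myh1 (0.67, edgeR adjusted p = 0.112) were not called. For Myh2 the controls ran from 213.0 to 535.7 CPM and the knockouts from 540.9 to 1394 CPM, highest in knockout 1. Over the 10 markers, 7 log2 fold changes were above 0 and 3 below. Of 5 tested macrophage markers 3 were lower, with a summed level of 59.2 to 99.5 CPM in controls and 43.3 to 69.3 CPM in knockouts, and of 5 fibroblast markers 1, Dcn, was lower. No adipocyte, endothelial, satellite cell or erythroid marker was called, and Ucp1 of brown adipocytes and Nppa of cardiomyocytes were at 0 reads in every library. The part of these markers in the complex I values was not tested.

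Neighbouring and copied sequences limit some counts. The 47 genes lie on 18 chromosomes, and 13 have a divergent protein-coding neighbour within 1000 bases. Of these 13, Ndufa5, Ndufa8, Ndufb3 and Ndufb9 (30.8%) were called higher. That share lies near the 26.3% of all subunit genes tested, beside 8.87% of all genes tested. Exons of 20 genes overlap another annotated gene, among them the called genes Ndufb6 (with Smim27, on the other strand) and Ndufb9 (with Gm49356, on the same strand). The last 300 bases of 6 genes match another gene at 95% identity or more over at least 75 bases: Ndufb11, Ndufb2, Ndufb3, Ndufb6, Ndufs3 and Ndufs5. For Ndufb3 the copy, Gm45930, had 0 reads, for Ndufb6 the partner Smim27 had 762 reads beside 4022, and for Ndufs5 the copy BC002163 had 23 beside 91. The counts of Ndufb6, Ndufb9 and Ndufs5 are therefore uncertain. The treatment of multiply mapping reads is not given, so 0 reads in the copy do not settle the count of Ndufb3. For the same reason the counts of Ndufb2, Ndufb11 and Ndufs3 may be affected too.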

How the data were processed

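Per the file headers, the deposited tables hold the authors' unnormalized read counts for Ensembl genes, 1 table for each library. Per the submitters' processing notes, the tools were Bowtie2 2.3.4.1 and featureCounts of Subread 1.6.2, with the builds GRCm38 and mm10. Annotation release, strand setting and treatment of multiply mapping reads: not given in the sources used here. Libraries were QuantSeq FWD, in which reads come from the 3′ end and do not scale with transcript length. Gene names and coordinates are from GENCODE M21 (GRCm38), which matched 54495 of 54532 genes. The locus it calls Ndufb1-ps is the protein-coding Ndufb1 in RefSeq and was kept. The 4 pseudogenes left out had 0 to 26 reads.

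Groups are the genotypes of the labels, with libraries numbered within each by accession and not paired. Library pairs were compared by chi-square over genes with at least 10 reads: the value per degree of freedom was at least 2.33, so no library was a duplicate. The main test was the robust quasi-likelihood F test of edgeR 4.0.16 in R 4.3.3 (TMM, filterByExpr with minimum count 10 and minimum total 15, Benjamini-Hochberg adjustment over 10691 genes, threshold 0.05). Alternatives were DESeq2 1.42.0, limma 3.58.1 (voom), other scalings and filters, no robust estimation and each library left out. Leaving out control 1 and knockout 1 together was added after seeing the data. At these totals 3 reads correspond to 0.555 to 0.681 CPM, counting error only. The fit was tested on simulated data with known changes. It called 8.67% of the genes changed 1.25-fold, 46.7% of those changed 1.5-fold and 80% of those changed 2-fold. Of the unchanged genes it called 0.0745%. Small changes were thus mostly missed in the simulated data. Only 200 genes were changed in a simulation, whereas 1675 genes were called in the real libraries. Benjamini-Hochberg adjustment is less strict where more genes change, so these shares cannot be carried over to the real libraries. A gene not called may still have changed. Copies of 3′ ends were searched with BLAST+ 2.17.0, and promoter windows are from RefSeq GRCm38.p6.

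The genes and lists were chosen with earlier results of these data known. Genes were named in the text if they were called, had 1 of the 2 lowest p-values among those not called in their role group, failed the filter or changed call in an alternative. From each other list up to 3 called genes of lowest p were named. Log2 values of the remaining members and of a few list genes were added for completeness. Counts and medians cover all members, of which 1 is not reported here by itself.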

Additional observations from a re-analysis of the deposited data

Results flagged for a closer look

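In 5 cases a value stood apart from the other 3 libraries of the same genotype by Dixon's test, in 90 groups examined, of which chance alone would mark about 1 in 20. Ndufa4 was at 86.7 CPM in knockout 1 beside 118.0 to 121.6 CPM in the other knockouts. Ndufb1 was at 137.4 CPM in control 1 beside 97.3 to 100.6 CPM in the other controls. Control 2 stood apart for Ndufaf7, at 20.9 CPM beside 12.1 to 13.0 CPM, and for Ndufs6, at 387.2 CPM beside 322.1 to 326.6 CPM. Ndufa7 was at 233.3 CPM in control 4 beside 206.5 to 208.1 CPM in the other controls. None of these 5 genes was called in the main test, and with no filter on low counts Ndufa4, Ndufb1 and Ndufaf7 were called.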

How the results depend on the processing

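Over the 16 alternatives the median log2 fold change of the subunit genes ranged from 0.145 to 0.225, and the count over all genes from 1307 to 1835. With other scalings, tools and filters on all 8 libraries, 9 to 11 subunit genes were called, all higher. Leaving out 1 library at a time gave 5 to 11 called subunit genes, 1 to 2 Ndufaf genes and 15 to 33 genes of the other lists (30 of 133 with all libraries, 15 without knockout 4, 17 without control 4, 18 without knockout 2 and 19 without control 3). With no filter on low counts 2 Ndufaf genes were called, Ndufaf4 lower and Ndufaf7 higher. Signs changed in genes near 0. Without control 1 and knockout 1, Ndufa13 was at -0.0242, Ndufa2 at -0.0017 and Ndufaf1 at -0.0177. With single libraries left out, Ndufaf1 ranged from -0.012 to 0.1908 and Ndufc1 from -0.0091 to 0.0885, with -0.0021 without knockout 4. The cause was not tested. No paired analysis was possible because the labels give the libraries no shared replicate numbers. Read number limits Ndufs5 and Ndufa4l2 most, with 91 and 67 reads over the 8 libraries.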
